A study of Mus musculus with 6 samples.

Results

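The Slc2 genes encode the GLUT proteins, membrane carriers that let glucose, fructose and related sugars or polyols cross a membrane, most of them passively. In the mouse β cell, which releases insulin when blood glucose rises, GLUT2 (Slc2a2) is the main route by which glucose enters before it is phosphorylated and broken down. The family is divided by sequence into class I (Slc2a1 to Slc2a4), class II, which holds the fructose carrier GLUT5 (Slc2a5) and the urate carrier GLUT9 (Slc2a9), and class III (among others Slc2a6, Slc2a8, Slc2a12 and Slc2a13), several of which sit in internal membranes. The account covers 10 members, chosen by gene name out of 54532 genes in the deposited table, and each name had 1 row.

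Islets came from mice 7 weeks old, with 3 mice pooled for each library. Controls carried Wtap flox/flox, in which the gene for WTAP, a subunit of the complex that writes N6-methyladenosine on RNA, is flanked by recombination sites. The second group is labelled Wtap-βKO, which names a deletion in β cells. Sources used here do not give the promoter that drives it. Each group had 3 libraries of poly-A RNA, described in the labels as independent biological replicates, with between 16353297 and 18682745 reads recovered per library from the values.

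Values are FPKM, fragments per kilobase of gene divided by a library size, so levels can be compared between genes as far as the gene length used holds. That length is of all annotated exons together. It was 5755 bases for Slc2a2 and 7245 for Slc2a3, against 5569 and 3959 in their longest coding transcripts. Library sizes implied by the values were 0.952 to 0.988 times the recovered reads in controls and 1.037 to 1.068 times in the second group. Differences are the libraries labelled Wtap-βKO minus the controls on the log2(FPKM + 1) scale, which understates the change of low genes, and were tested with limma over the 15927 genes whose mean FPKM reached 0.5 (two-sided, Benjamini-Hochberg adjusted over all of them, threshold 0.05). Intervals are limma's 95% intervals of that difference, not adjusted. Of those genes 20.1% were called, 8.77% higher and 11.3% lower. The calls were 43.7% higher under the authors' scaling, 53.8% when scaled without the 50 highest genes and 68.1% when scaled to total recovered reads. Wtap itself was at 10.5, 11.4 and 11.6 FPKM in the controls and at 11.2, 11.9 and 12.3 in the libraries labelled Wtap-βKO (log2 difference 0.07, interval -0.08 to 0.22, adjusted p = 0.475 by limma), so directions are those of the labels. Whether the reads lie in the deleted part of Wtap cannot be told from these values.

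Slc2a2 was the most abundant member in controls and the single member called by limma. It made up 62.7% ± 2.03 of the summed FPKM of the 10 members in controls and 24.7% ± 1.94 in the other group. Slc2a5, the next in level, stayed within the spread of its replicates and took the top place in the libraries labelled Wtap-βKO. The other 8 members together made up 17.8 ± 0.508 FPKM in controls and 14.6 ± 1.08 in the other group (SD, n = 3 each). Of the 10 members, 8 passed the filter on low values. Of these, 1 was called lower and 0 higher by limma, against 11.3% of all tested genes lower and 8.77% higher. By limma voom, a count-weighted fit run on reads recovered from the values, 4 of the 8 were called, against 25.7% of all tested genes. The groups did not overlap for 7 of the 8 (5 lower, 2 higher), against 41.3% of all tested genes.

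**Figure D1:**
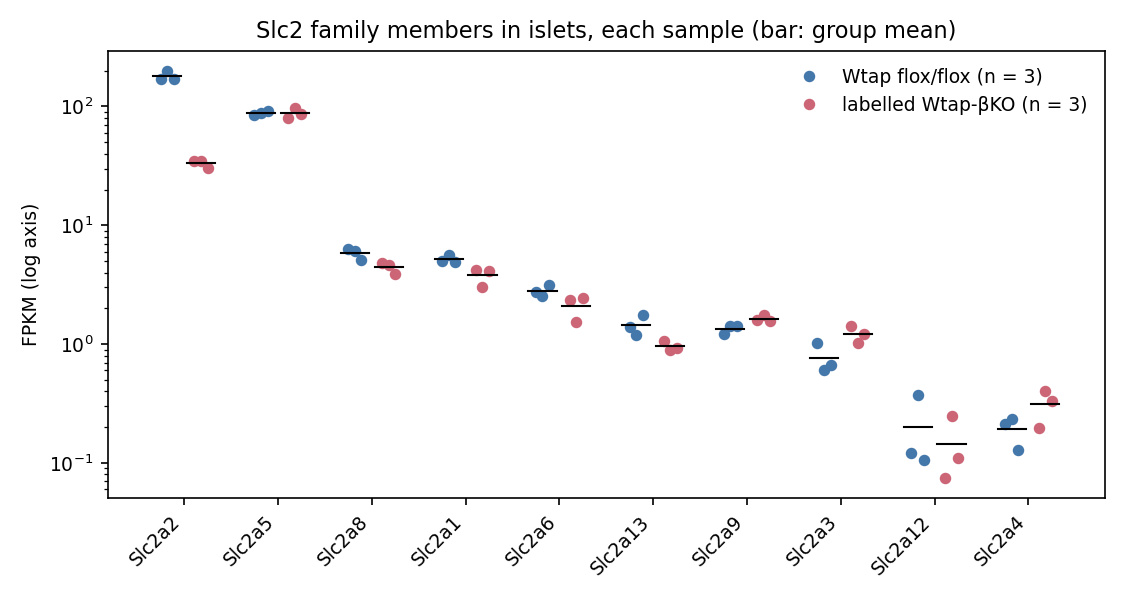
FPKM on a log axis for the 10 Slc2 members in each of the 6 libraries, ordered by control mean, with bars at the group means. Slc2a2 lies at 169 to 198 in controls and at 30.6 to 34.9 in the libraries labelled Wtap-βKO, while the groups of Slc2a5 overlap.

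The sequences before the start sites of these 2 abundant members are shown because they bracket the result, a gene that fell and one of similar rank whose groups overlapped. They are the 250 bases before the RefSeq start on GRCm38.p6, both from the plus strand. Slc2a2 is at chr3:28697653-28697902 and Slc2a5 at chr4:150119094-150119343. The Slc2a5 window runs past the start of that gene in the GENCODE annotation, 150119283. That of Slc2a2 ends just before its start there, 28697903. Capitals mark matches, on either strand, to letters bound by factor families of the β cell: CANNTG (the E box, bound by NEUROD1 and its partners), TAAT (the homeodomain core, as for PDX1 and NKX6-1), TGCTGA (bound by MAF factors) and TGTTTAC (FOXA).
Slc2a2: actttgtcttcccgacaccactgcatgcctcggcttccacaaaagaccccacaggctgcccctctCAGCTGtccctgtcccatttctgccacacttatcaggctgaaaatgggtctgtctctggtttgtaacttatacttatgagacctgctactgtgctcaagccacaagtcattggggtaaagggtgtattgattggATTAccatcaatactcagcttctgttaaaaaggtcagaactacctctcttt
Slc2a5: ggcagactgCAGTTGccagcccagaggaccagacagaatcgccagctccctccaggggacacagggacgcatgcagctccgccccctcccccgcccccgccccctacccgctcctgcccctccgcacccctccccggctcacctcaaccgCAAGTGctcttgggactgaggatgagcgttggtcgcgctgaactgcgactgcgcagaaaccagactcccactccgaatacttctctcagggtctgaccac

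The Slc2a2 window held 1 E box, which began 185 bases before the start, and 1 TAAT, which began 51 bases before it. That of Slc2a5 held 2 E boxes, at 241 and 100 bases before the start, and no TAAT. E boxes were in 66.0% and TAAT in 55.3% of 27025 such windows, 1 per gene. The letters for MAF and FOXA (in 15.8% and 3.09% of windows) were in neither. The windows differed in composition, with 47.2% G and C and 2 CG pairs before Slc2a2, and 66.4% and 15 before Slc2a5. Of the other members RefSeq promoters matched Slc2a1, Slc2a6, Slc2a8, Slc2a9, Slc2a12 and Slc2a13, with G and C between 48.8% and 66.4%, and Slc2a3 and Slc2a4 had no match.

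Slc2a2 lies on chromosome 3 from 28697903 to 28731359 on the plus strand (GRCm38), with 11 exons in its longest coding transcript. It was at 169, 198 and 169 FPKM in controls, and at 34.9, 34.9 and 30.6 in the libraries labelled Wtap-βKO. Every control lay far above every library of the other group, and control replicate 2 was the highest of the 6. The means were 179 ± 17.0 and 33.5 ± 2.50 (SD, n = 3 each), so the second group held 18.7% of the control level. The log2 difference was -2.38 (SE 0.087, interval -2.59 to -2.17, adjusted p = 8.06e-05 by limma). Slc2a2 ranked 99 of 15927 tested genes by level in controls and at 1060 in the libraries labelled Wtap-βKO, and its log2 difference ranked 11 from the lowest. The depth behind it was 17036, 18030 and 17276 reads in controls and 3788, 3599 and 3036 in the other group. These are whole-islet libraries, in which fewer β cells and less RNA per β cell cannot be told apart.

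An annotated antisense gene, 1700112D23Rik, crosses the Slc2a2 locus on the minus strand (chromosome 3 from 28702667 to 28781108) and shares no exon base with it. It is described here because of that overlap. It was at 8.60, 10.4 and 7.93 FPKM in controls and at 1.03, 1.24 and 0.481 in the libraries labelled Wtap-βKO, on 102 to 119 and 6 to 16 reads. It fell with Slc2a2, by 2.40 on the log2(FPKM + 1) scale (SE 0.17, adjusted p = 0.000449 by limma). That scale understates the change of low genes. In mean FPKM the second group held 10.2% of the control level of 1700112D23Rik, against 18.7% for Slc2a2. The library protocol has no step that marks strand, so reads of 1700112D23Rik inside the Slc2a2 gene cannot be told from reads of Slc2a2 introns. The antisense gene extends beyond the end of Slc2a2 at 28731359, and the values do not show where along it the reads lie.

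Most markers of β cells fell with Slc2a2. Of 10 listed β-cell markers, 8 fell and 0 rose, against 11.3% of all tested genes lower and 8.77% higher. Their median log2 difference was -1.03, against -0.01 over all tested genes. Their summed level was 135118 to 155376 FPKM in controls and 81995 to 92564 in the other group. The 2 not called were Iapp and the insulin gene Ins2. Ins2, the largest part of that sum, was called in 4 of 18 alternatives and in none that left out 1 library. There its log2 difference was -0.71 to -0.62 (adjusted p 0.170 to 0.477 by limma). The part that β-cell number has in the fall of Slc2a2 was not tested. Of these markers Mafa had a larger log2 fall than Slc2a2, at -2.84. Iapp, the amylin gene of β cells, was at 13167 ± 1038 and 12959 ± 1438 FPKM (log2 difference -0.03, interval -0.46 to 0.40, adjusted p = 0.935). Per 1000 FPKM of Iapp, Slc2a2 was at 14.1, 14.8 and 12.0 in controls and at 3.09, 2.52 and 2.23 in the libraries labelled Wtap-βKO. Per 1000 FPKM of Ins2, an insulin gene, it was at 2.05, 2.14 and 1.82 against 0.637, 0.587 and 0.543. Both ratios were lower in every library of the second group. Per 1000 FPKM of Mafa the groups overlapped, with 442, 624 and 460 against 814, 729 and 545.

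Of 14 transcription factors known to act on Slc2a2, 13 were tested. Of these, 7 fell and 1 rose, against 11.3% of all tested genes lower and 8.77% higher, with a median log2 difference of -0.32. Mafa, Nkx6-1 and Pdx1 are also among the β-cell markers above, so the counts of both lists share these genes. Mafa, which drives insulin gene transcription, fell from 356 ± 33.7 to 49.0 ± 6.65 FPKM, and Nkx6-1, a homeodomain factor of β-cell identity, from 195 ± 7.99 to 89.5 ± 2.87. Srebf1, a factor of lipid synthesis, fell from 39.6 ± 0.824 to 20.3 ± 0.890, and Neurod1, an E-box-binding factor, from 93.3 ± 2.91 to 60.7 ± 2.01. Pdx1, the homeodomain factor first known for binding the insulin promoter, fell from 99.1 ± 5.24 to 52.7 ± 11.4. The adjusted p of these 5 by limma was 0.00867 at most. The factor that rose was Rfx6, a regulator of islet development, from 54.9 ± 4.28 to 64.6 ± 0.523 (adjusted p = 0.0475), and that call was lost without any 1 library other than control replicate 2 (adjusted p 0.0682 to 0.142). With 1 library left out, 5 to 8 of the factors were called lower and 0 or 1 higher.

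**Figure D2:**
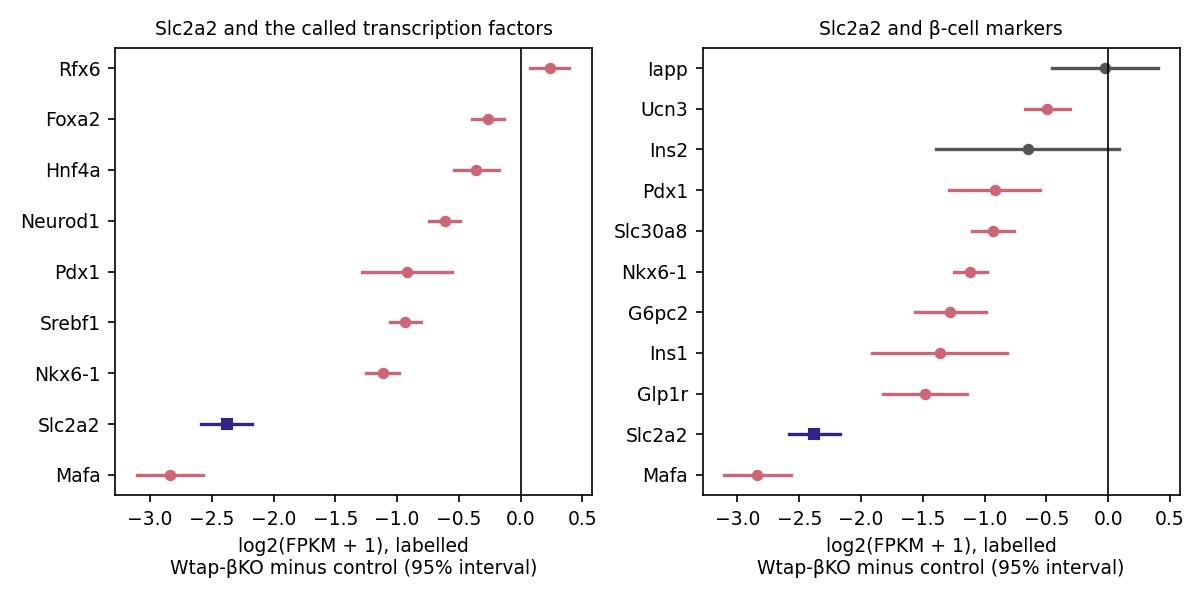
Log2 differences with 95% intervals for Slc2a2 (square) beside the 8 called of the 13 tested transcription factors (left) and the 10 β-cell markers (right), red where the adjusted p was under 0.05. Slc2a2, at -2.38, lies between Mafa at -2.84 and the remaining genes of both panels.

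Over the 6 libraries the genes whose log2(FPKM + 1) followed that of Slc2a2 most closely, of 7328 whose mean FPKM reached 5, were Cope, Cacna2d1, D5Ertd579e, Epb41l3 and Car10. Their Pearson correlations ran from 0.9985 to 0.9992. The points are 2 groups of 3 libraries, so a gene that differs between the groups with little spread within them scores high whatever the size of its difference. Cope, a coatomer subunit gene, differed by -0.38 on the log2 scale, and Car10, of the carbonic anhydrase family, by -1.68.

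The other class I members were low. Slc2a1 encodes GLUT1, the carrier of brain endothelium and many dividing cells. It lies on chromosome 4 from 119108711 to 119137983, where an antisense gene with at most 2 reads per library shares 105 exon bases. It was at 5.05, 5.67 and 4.89 FPKM in controls and at 4.18, 3.03 and 4.15 in the libraries labelled Wtap-βKO. The groups did not overlap, and replicate 2 of the second group was lowest. The log2 difference of -0.38 (SE 0.12, interval -0.66 to -0.11) missed the threshold (adjusted p = 0.0606 by limma), and passed it by voom (-0.47, adjusted p = 0.0283). Slc2a2 was 33.5 to 35.0 times as abundant as Slc2a1 in controls and 7.37 to 11.5 times in the other group.

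Slc2a3 encodes GLUT3, the high-affinity carrier of neurons and some blood cells. It was at 1.02, 0.603 and 0.667 FPKM in controls and at 1.42, 1.02 and 1.22 in the libraries labelled Wtap-βKO, on 69 to 194 reads. A processed pseudogene with 8 to 20 reads per library, Gm4482, lies within it and shares no exon base. The highest control lay just under the lowest library of the other group. The log2 difference was 0.34 (SE 0.14, interval 0.01 to 0.66, adjusted p = 0.132 by limma), and by voom 0.70 (adjusted p = 0.0303). Slc2a4 encodes GLUT4, the insulin-responsive carrier of muscle and fat, and was near the counting limit with 13, 13 and 8 reads in controls and 13, 25 and 20 in the other group. It was below the filter and untested, and its read ratio of 1.61, scaled for library size, had a counting interval of 1.04 to 2.54 (exact binomial, 95%), which covers counting error and leaves out the spread between libraries. Its groups overlapped.

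Markers of vessel, blood, nerve, fat and muscle cells were counted beside the shares of all tested genes, 8.77% higher and 11.3% lower. Of 8 endothelial markers, 2 rose (summed FPKM 169 to 205 in controls, 203 to 230 in the other group). Of 8 macrophage markers, 7 were tested and 1 rose (93.3 to 103, and 112 to 124). Of 6 red blood cell genes, 5 were tested and 1 rose (29.9 to 34.2, and 44.9 to 53.8). Of 8 glial and neuronal markers, 7 were tested and 2 fell (60.8 to 70.8, and 56.0 to 58.6). Of 6 fat cell markers, Fabp4, which endothelium also expresses, was the one tested and rose, Plin1 and Lep were listed at 0 in every library, and the sum was 1.28 to 1.85 against 2.66 to 3.37. Of 6 skeletal muscle markers, 1 was tested and not called, Myh1 and Myh4 were listed at 0, and the sum was 0.732 to 1.34 against 0.637 to 1.002. With 1 library left out, 0 or 1 endothelial and 0 or 1 fat cell markers were called higher, 1 or 2 red cell genes were, and 0 to 2 glial and neuronal markers were called lower. Their part in the values of Slc2a1, Slc2a3 and Slc2a4 was not tested.

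Markers of the remaining islet and exocrine cells were counted beside the same shares, 8.77% of all tested genes higher and 11.3% lower. Of 9 α-cell markers, 5 rose, and of 6 δ- and PP-cell markers, 3 rose, with summed levels of 21348 to 25556 and 15582 to 17463 FPKM in controls and of 33901 to 44760 and 18470 to 34652 in the other group. Of 10 tested acinar markers, 2 rose (126 to 221, and 221 to 317), and of 8 tested duct markers, 1 rose (216 to 241, and 217 to 253). Of 7 tested fibroblast markers, 4 rose (18.2 to 23.8, and 31.8 to 40.2), and of 5 tested B- and plasma-cell markers, 3 rose and 1 fell (15.4 to 17.5, and 72.2 to 80.1). With 1 library left out, 0 to 8 acinar and 1 to 3 δ- and PP-cell markers were called higher. The part of these cells in the levels of the Slc2 genes was not tested.

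The class II members did not pass the test. Slc2a5 encodes GLUT5, known as the fructose carrier of the intestine and kidney, and lies on chromosome 4 from 150119283 to 150144169. It was at 84.8, 88.9 and 90.7 FPKM in controls and at 79.3, 97.0 and 86.8 in the libraries labelled Wtap-βKO, on 4777 to 5906 reads. The values of the second group spread around those of the first. The means were 88.1 ± 3.00 and 87.7 ± 8.88 (SD, n = 3 each), with a log2 difference of -0.01 (SE 0.080, interval -0.20 to 0.18, adjusted p = 0.936 by limma). The sign turned under 3 other scalings, with values of 0.029 to 0.10, and without control replicate 3 or replicate 1 of the second group. Slc2a5 ranked 287 of 15927 tested genes in controls and 274 in the other group.

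Set against each other, Slc2a2 was 1.99, 2.23 and 1.86 times as abundant as Slc2a5 in the controls. In the libraries labelled Wtap-βKO Slc2a5 was 2.27, 2.78 and 2.84 times as abundant as Slc2a2. The order of the 2 was the same in every library of a group and opposite between the groups. Slc2a9, known as a urate carrier, was at 1.22, 1.42 and 1.42 FPKM in controls and at 1.59, 1.75 and 1.56 in the other group. Its groups did not overlap, and its log2 difference of 0.16 (SE 0.093, interval -0.06 to 0.38) missed the threshold (adjusted p = 0.264 by limma).

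**Figure D3:**
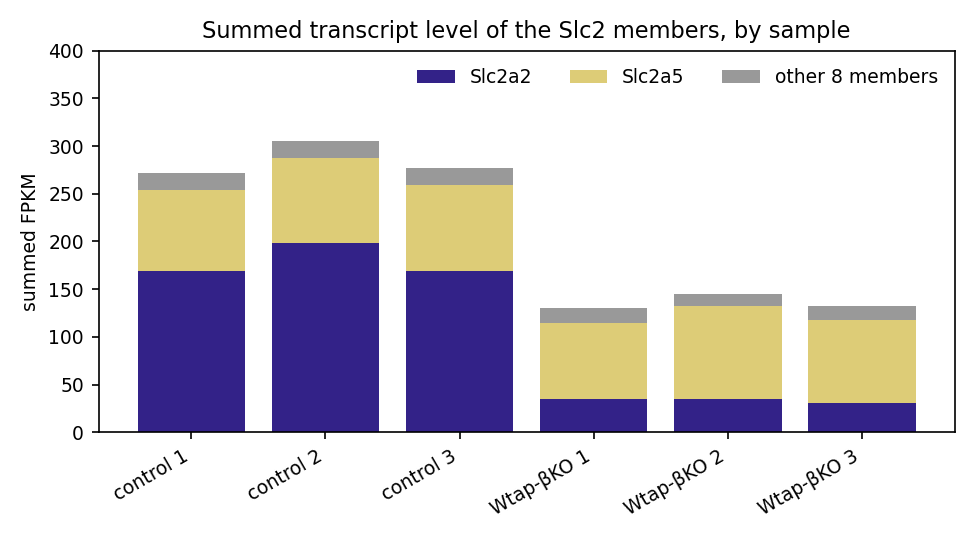
Summed FPKM of the 10 members in each library, stacked as Slc2a2, Slc2a5 and the other 8 members. The sum is 272 to 305 in controls and 130 to 145 in the libraries labelled Wtap-βKO, and without Slc2a2 it is 103 to 108 and 94.96 to 110.

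Summed over the 10 members, the level was 285 ± 18.1 FPKM in controls and at 136 ± 8.42 in the libraries labelled Wtap-βKO. Without Slc2a2 it was 106 ± 2.67 and 102 ± 7.80, and those values overlapped between the groups. The share of Slc2a5 in the sum was 31.0% ± 1.84 in controls and 64.5% ± 3.02 in the other group. These sums are of transcript levels and were not tested.

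Of the class III members, 3 were measurable and 1 was near the counting limit. Slc2a8 encodes GLUT8, a carrier of internal membranes, and was at 6.28, 6.04 and 5.06 FPKM in controls and at 4.81, 4.65 and 3.90 in the libraries labelled Wtap-βKO. Its groups did not overlap, and its log2 difference was -0.32 (SE 0.10, interval -0.56 to -0.07, adjusted p = 0.0717 by limma). Slc2a6 encodes GLUT6, found in lysosomal membranes of macrophages, and was at 2.74, 2.54 and 3.17 FPKM against 2.35, 1.53 and 2.44. Replicate 2 labelled Wtap-βKO was the lowest of the 6, and the log2 difference of -0.31 (SE 0.14, adjusted p = 0.168 by limma) came to -0.17 without it.

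Slc2a13 encodes HMIT, a proton-coupled carrier of myo-inositol. It was at 1.41, 1.203 and 1.75 FPKM in controls and at 1.07, 0.888 and 0.936 in the libraries labelled Wtap-βKO, and the groups did not overlap. Its log2 difference of -0.32 (SE 0.12, interval -0.60 to -0.03) missed the threshold (adjusted p = 0.109 by limma), and passed it by voom (-0.58, adjusted p = 0.0222). Slc2a12 encodes GLUT12 and had 9, 25 and 8 reads in controls and 6, 19 and 8 in the other group, too few for the filter. Its exons share 407 bases with Tbpl1 on the other strand, a gene with 380 to 474 reads per library. Its read ratio, scaled for library size, was 0.744, with a counting interval of 0.457 to 1.202.

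**Figure D4:**
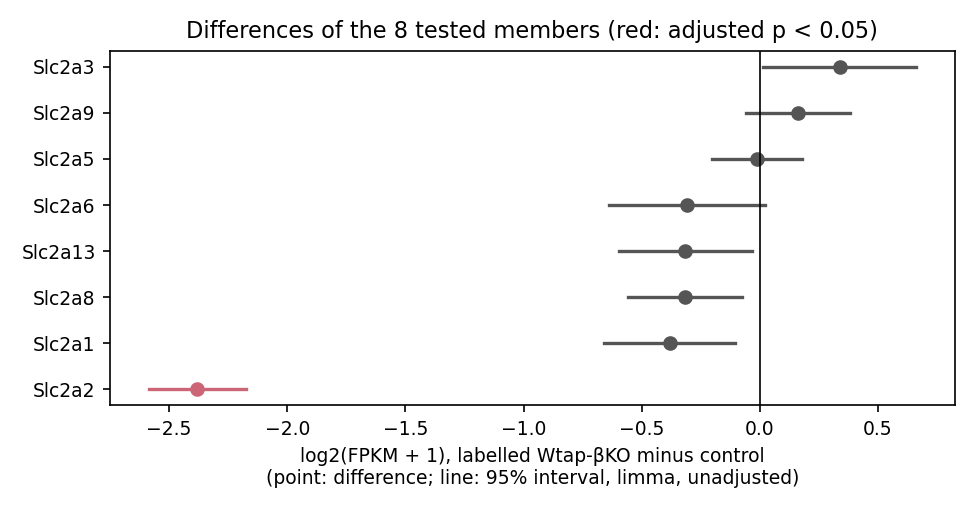
Log2 differences (points) with 95% limma intervals (lines) for the 8 tested members, red where the adjusted p was under 0.05. Slc2a2 stands at -2.38, and the other 7 lie between -0.38 and 0.34.

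The order of levels in controls was Slc2a2, Slc2a5, Slc2a8, Slc2a1, Slc2a6, Slc2a13, Slc2a9, Slc2a3, Slc2a12 and Slc2a4. Neighbours whose ranges over the 3 libraries overlapped were Slc2a8 with Slc2a1, Slc2a13 with Slc2a9, and Slc2a12 with Slc2a4. In the libraries labelled Wtap-βKO the order was Slc2a5, Slc2a2, Slc2a8, Slc2a1, Slc2a6, Slc2a9, Slc2a3, Slc2a13, Slc2a4 and Slc2a12. There the ranges of Slc2a8 and Slc2a1, Slc2a6 and Slc2a9, Slc2a3 and Slc2a13, and Slc2a4 and Slc2a12 overlapped. Both further mouse family genes on a list outside the members were low. Slc2a10 (GLUT10) was at 0.911, 0.887 and 0.976 FPKM against 0.787, 1.42 and 1.33 (log2 difference 0.17, interval -0.17 to 0.51, adjusted p = 0.448 by limma), and the difference was 0.31 without replicate 1 and 0.085 without replicate 2 of the second group. Slc2a7 (GLUT7) had 10 reads in controls and 29 in the other group and was not tested.

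Carriers of other families were counted beside the shares of all tested genes, 8.77% higher and 11.3% lower. Of 19 other sugar and sugar-phosphate transporters, 8 were tested, with 1 higher and 1 lower and a median log2 difference of -0.02, and with 2 higher and a median of 0.07 when scaled to total recovered reads. Mfsd4b1 rose from 1.73 ± 0.315 to 4.37 ± 0.781 FPKM (adjusted p = 0.00419 by limma). Slc37a4, which carries glucose 6-phosphate into the endoplasmic reticulum, fell from 37.6 ± 2.94 to 23.6 ± 7.55 (adjusted p = 0.0478). Its call was lost in 5 of the 6 fits that leave out a library (adjusted p 0.0960 to 0.136) and kept without replicate 2 of the second group, and it was lost when scaled to total recovered reads (0.0698). Slc37a3, Slc45a4 and Slc17a5 had log2 differences of -0.24, 0.20 and -0.19 and did not pass. The sodium-coupled glucose carrier genes Slc5a1 and Slc5a2 were at 0.324 and 0.0590 FPKM in controls, below the filter, and Slc5a11 was listed at 0 in every library.

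Genes that act on where GLUT proteins sit were counted beside the same shares, 8.77% of all tested genes higher and 11.3% lower. Of 19 genes of surface delivery and glycosylation, 2 rose and 6 fell, with a median log2 difference of -0.11. That balance turned with the scaling, to 4 higher and 3 lower when scaled without the 50 highest genes (median -0.073) and also when scaled to total recovered reads (median -0.0049). The genes that rose were Txnip and Arrdc4, arrestin-domain proteins that promote removal of glucose carriers from the surface, by 1.23 on the log2 scale each. Txnip went from 151 ± 17.9 to 355 ± 34.9 FPKM and Arrdc4 from 7.57 ± 0.191 to 19.5 ± 4.70. Vps35, a retromer subunit that returns membrane proteins from endosomes, fell from 25.8 ± 0.823 to 17.9 ± 0.221. Tbc1d1, a Rab regulator of GLUT4 traffic, fell from 17.0 ± 0.663 to 12.2 ± 0.291, and the sorting receptor gene Sort1 from 38.1 ± 0.977 to 30.6 ± 1.18. Mgat4a, whose enzyme adds the glycan branch that holds GLUT2 at the β-cell surface, was at 1.202 ± 0.0918 and 1.44 ± 0.0769 (log2 difference 0.15, adjusted p = 0.306). The other 3 genes called lower were Snx27, Lnpep and Vamp2, and none of these 3 was called when scaled to total recovered reads. With 1 library left out, 3 to 5 genes of the list were called lower and 2 or 3 higher.

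Of 19 genes of glucose phosphorylation, release and first steps, 14 were tested. Of these, 1 was higher and 2 lower, against 8.77% and 11.3% of all tested genes, with a median log2 difference of -0.12. G6pc2, the islet glucose-6-phosphatase, fell from 1018 ± 143 to 418 ± 37.4, and Pfkfb2, which makes the activator of phosphofructokinase, from 19.6 ± 2.30 to 10.4 ± 0.880. Hk1, the high-affinity hexokinase, rose from 1.54 ± 0.239 to 2.36 ± 0.208 (adjusted p = 0.0382), a call lost in 5 of the 6 fits that leave out a library (0.0640 to 0.117) and kept without replicate 2 of the second group. Pfkfb3 was at 0.26 on the log2 scale (adjusted p = 0.0918).

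Of 15 genes of the hypoxia and growth factor control of Slc2a1 and Slc2a3, 11 were tested. Of these, 3 were higher and 2 lower, against 8.77% and 11.3% of all tested genes, with a median log2 difference of 0.06. Ldha, lactate dehydrogenase A, rose from 4.18 ± 0.427 to 6.60 ± 0.308 FPKM, Epas1, an oxygen-regulated factor, from 18.4 ± 1.45 to 25.4 ± 1.17, and Egln1, the oxygen sensor that marks such factors for decay, from 16.6 ± 0.521 to 21.4 ± 1.35. Vegfa, an angiogenic factor, fell from 154 ± 7.90 to 119 ± 4.25. Myc fell from 4.89 ± 0.762 to 3.12 ± 0.371 (adjusted p = 0.0273 by limma), a call lost in all fits that leave out a library except the one without control replicate 2 (0.0521 to 0.0907). Hif1a was at 13.1 ± 0.198 and 11.8 ± 0.234 and did not pass (adjusted p = 0.103).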

How the data were processed

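The authors deposited 1 table of FPKM values with a gene length per gene, per the file headers. The tools DESeq2 1.20.0, featureCounts 1.5.0-p3, HISAT2 2.0.5 and CASAVA and the builds GRCm38 and mm10 are named, without role or order, per the submitters' processing notes. FPKM times gene length was a whole multiple of 1 read, within 0.01 read, for 100.0% of values above 0. FPKM was used as deposited, since median-of-ratios factors were 1 in every library. Values were fitted as log2(FPKM + 1) with limma 3.58.1 in R 4.3.3 (lmFit, eBayes with a variance trend). The method was tested on simulated data. Gene overlaps and exons come from GENCODE M21 and promoters from RefSeq. Python 3.11.15, pandas 2.3.3 and matplotlib 3.10.9 were used for tables and figures. Members and gene lists were chosen with earlier results of these data known. Of each list, up to 5 genes are named, those of smallest adjusted p among genes whose mean FPKM reached 1, and the called genes where they were few, with others added for their role after their values were seen. Some genes of these lists are not reported here by name. Alternatives covered the scaling, the pseudocount (0.1, 0.5), the filter (none, mean FPKM of at least 5), the variance model, voom, a block for the replicate number and leaving out each library, and for list genes they were added after the data were seen.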

Additional observations from a re-analysis of the deposited data

How the results depend on the processing

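Slc2a2 was called lower under all 18 alternatives run, with log2 differences from -2.42 to -2.27, and leaving out 1 library gave -2.42 to -2.30. Median-of-ratios scaling, counted among them, repeats the main fit, since its factors were 1 in every library. By limma voom on recovered reads, Slc2a1 (-0.47), Slc2a13 (-0.58) and Slc2a3 (0.70) passed the threshold, and with the replicate number as a block Slc2a8 did (-0.32, adjusted p = 0.0370). The cause was not tested. Slc2a5 turned positive when scaled without the 50 highest genes (0.029), scaled to total recovered reads (0.10) and under quantile normalization (0.039), and ran from -0.086 to 0.058 with 1 library left out, being positive without control replicate 3 (0.0090) or replicate 1 labelled Wtap-βKO (0.058). Slc2a6 and Slc2a9 kept their direction and side of the threshold in the 17 alternatives that could test them, as a mean FPKM of at least 5 leaves them out. Over all genes 3195 calls became 1794 to 3213 with 1 library left out, and fell by over 1.5 times without control replicate 1, 2 or 3 (1838, 1794 and 1905) or replicate 3 labelled Wtap-βKO (1971), where fewer libraries were fitted. The block gave 2638 calls. Deviations of same-numbered libraries correlated at 0.018 to 0.038, under the 0.1 that would pair them, though each of the 6 libraries correlated best with its own number, a hint from the data and not the design. Depth limits Slc2a4, Slc2a12 and Slc2a7, with 2 to 25 reads per library.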

Other observations

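The WTAP complex writes its mark at a short consensus of which GGACU, read as GGACT in the transcript sequences, is a frequent form. In the longest coding transcript of each member (GENCODE M21, sense strand), GGACT occurred 6 times in the 5569 bases of Slc2a2, 4 of them in the coding region and 2 after it, or 1.08 per kilobase. That of Slc2a5 held 4 in 3158 bases, 3 of them before the coding region, or 1.27 per kilobase. The median over 12692 tested coding genes was 1.05. Slc2a8 had the densest match among the members, with 5 in 2108 bases (2.37 per kilobase, above 94.0% of those genes), and Slc2a4 had 0. A match is a description of letters, and methylation was not measured here.

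The spread within groups differed among the members. The coefficient of variation of Slc2a5 was 3.41% among controls and 10.1% among the other libraries, and that of Slc2a2 was 9.53% and 7.47%. The first principal component of the tested genes (49.5% of the variance) separated the groups, and on the second (16.2%) replicate 2 labelled Wtap-βKO stood apart from the other 5 libraries. That library held the lowest values of Slc2a1, Slc2a6 and Slc2a13 and the highest of Slc2a4, Slc2a5 and Slc2a9 of all 6. Without it Slc2a2 differed by -2.41, Slc2a1 by -0.26 and Slc2a13 by -0.29 on the log2 scale.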
